A study of Mus musculus with 6 samples.

Results

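The miRNAs described here are miR-21a, miR-221, miR-222, miR-146a, miR-31 and miR-99b, a set named for spermatogonia, the mitotic germ cells that precede meiosis. They were chosen by miRBase name, with both arms of each precursor (mmu-miR-21a-5p, mmu-miR-31-5p, mmu-miR-99b-5p, mmu-miR-146a-5p, mmu-miR-221-3p, mmu-miR-222-3p and their partner arms), which gave 12 of the 1900 miRNA entries of the deposited small RNA table. Small RNA was sequenced from round spermatids, haploid cells purified from testes. The groups were Miwi knockout (KO), with 3 libraries, and wild type (WT), with 3 libraries, all of strain C57BL/6 at postnatal day 21. The knockout is global, from a line re-established from frozen sperm, and per the study's design text its round spermatids form only up to step 4. MIWI (PIWIL1) is a PIWI protein that binds piRNAs in meiotic and haploid germ cells. Nothing in the labels tells whether libraries 1 to 3 of a genotype came from separate animals or pools, so the p-values reflect only the spread among these libraries, and that spread may be technical. The members serve as a check on cell stage, that is, whether miRNAs of earlier germ cells differ between the purified fractions.

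A miRNA is cut by Drosha and Dicer from a hairpin precursor, and usually only 1 arm is retained by an Argonaute protein. Targets are recognised mainly through the seed, bases 2 to 8 of the mature RNA. In mice, miR-21, miR-146a and the pair of miR-221 and miR-222 have been linked to spermatogonial maintenance, and miR-21, miR-146a, miR-221 and miR-222 are also abundant in leukocytes, endothelium and other somatic cells. None of these is exclusive to germ cells.

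The mature sequences show which members share a seed (capitals, bases 2 to 8). They are from RefSeq (build GRCm38.p6), which held 11 of the 12 entries. Those of the 7 entries abundant enough to test are given with the relatives of the same seed, apart from miR-1928, which shares the seed of miR-221-3p and miR-222-3p and had 6 counts in all:

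miR-21a-5p: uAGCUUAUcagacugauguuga
miR-21c: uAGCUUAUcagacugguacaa
miR-221-3p: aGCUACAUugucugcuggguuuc
miR-222-3p: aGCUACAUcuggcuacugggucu
miR-146a-5p: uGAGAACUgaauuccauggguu
miR-146b-5p: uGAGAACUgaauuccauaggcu
miR-31-5p: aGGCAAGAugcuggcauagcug
miR-31-3p: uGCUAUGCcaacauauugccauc
miR-99b-5p: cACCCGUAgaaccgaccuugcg
miR-99a-5p: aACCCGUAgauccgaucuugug
miR-100-5p: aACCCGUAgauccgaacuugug

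Only miR-221-3p and miR-222-3p share a seed among the members, and beyond it they diverge, with 11 of 23 positions identical from the 5′ end. miR-146a-5p and miR-146b-5p match at 20 of 22 positions, and miR-99a-5p and miR-100-5p at 21 of 22. miR-99b-5p is less close, matching miR-99a-5p and miR-100-5p at 18 of 22 each. How reads that fit several entries were assigned is not given in the sources used here, so the split between such similar entries is uncertain. The gene of miR-21a lies at chr11:86584067-86584158 on the minus strand (GRCm38) and overlaps an annotated exon of the protein-coding gene Vmp1. Mir31, at chr4:88910557-88910662 on the minus strand, overlaps an exon of the lincRNA AL805899.1. Mir99b, at chr17:17830188-17830257 on the plus strand, lies in an intron of Spaca6, a gene for a sperm protein of gamete fusion, with the let-7e gene 94 bases and the miR-125a gene further downstream. Mir221 (chrX:19146294-19146388) and Mir222 (chrX:19146893-19146971) lie 504 bases apart on the minus strand, and they and Mir146 (chr11:43374397-43374461, minus strand) overlap no other annotated gene.

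Depth and scale set the limits of what follows. The small RNA table held 747443 to 1335013 counts in the KO libraries and 3114845 to 5037232 in the WT libraries, of which miRNAs were 18.1% to 19.6% in KO and 4.88% to 5.96% in WT. The miRNA depth was closer, with 146487 to 243655 miRNA counts per KO library against 179761 to 246030 per WT library. Levels below are counts per 1000000 miRNA counts (CPM), and changes are log2 ratios of KO over WT on this scale. A miRNA was called past an adjusted p of 0.05 in edgeR's quasi-likelihood test, fitted and adjusted over all 26032 tested entries of the table. Of those entries 84.8% were called, so the adjustment raised a miRNA's p only a little (miR-99b-5p from 0.0129 to 0.0158 in the edgeR test). It does not control the share of false calls among miRNAs alone. With miRNAs alone in the fit, 15 of 327 were called higher in KO and 28 lower, against 24 and 48 here.

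On this scale 1 member differed between the genotypes by the test. Of the 12 entries, 7 were abundant enough to test, of which 0 were called higher in KO, 1 (miR-99b-5p) was called lower and 6 did not pass. Among all 327 tested miRNA entries 7.34% were called higher in KO, 14.7% lower and 22.0% in either direction, and the 1 of 7 called lower is close to that share. Among all 26032 entries, mostly piRNAs, 5.53% were called higher, 79.3% lower and 84.8% in either direction on this scale. At an unadjusted p under 0.05 the counts of members were 0 higher and 2 lower with edgeR, and DESeq2 called 0 higher and 0 lower. DESeq2 scaled the libraries by its own size factors from the tested miRNA entries, not by the miRNA total, so tool and scale changed together. With edgeR on the miRNA total the median log2 change was -0.23 for the 7 members and -0.12 for all 327 miRNAs. The other 5 entries, all minor arms, held 10 counts in the 6 libraries together. All 12 entries summed to 10629, 8881 and 9300.03 CPM in KO libraries 1 to 3 and to 11309, 10891 and 10109 CPM in WT libraries 1 to 3. The sum made up 0.960% of all miRNA reads in KO spermatids against 1.08% in WT spermatids, and the libraries of the genotypes overlapped. miR-21a-5p alone made up 73.8% of the sum in KO and 71.0% in WT.

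**Figure D1:**
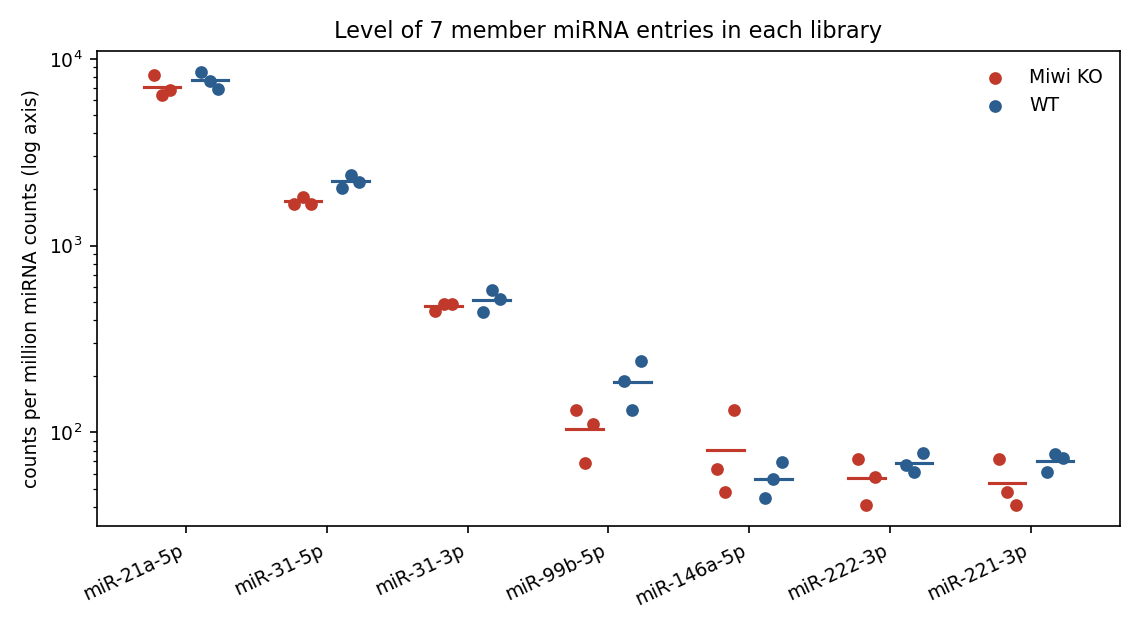
Level of the 7 tested member entries in each library, in CPM on a log axis, with Miwi KO libraries (red) left of WT libraries (blue) and a line at each mean (n = 3 each). miR-21a-5p stands at a mean of 7104 CPM in KO spermatids against 7661 CPM in WT spermatids, and only miR-31-5p and miR-99b-5p have genotypes that do not overlap. Such non-overlap is seen in 34.6% of the 327 tested miRNAs. For miR-99b-5p the highest KO library (132.1 CPM) and the lowest WT library (132.6 CPM) are nearly level.

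miR-21a-5p, which is widely expressed and represses Pdcd4, was the most abundant member. It had 1914, 933 and 1654 counts in the KO libraries and 1521, 1489 and 1704 counts in the WT libraries. Scaled to miRNA counts this was 8154, 6369 and 6788 CPM in KO and 8461, 7596 and 6926 CPM in WT. The genotypes overlapped, since KO library 1 lay above WT libraries 2 and 3. The means were 7104 ± 933 CPM in KO spermatids against 7661 ± 770 CPM in WT spermatids (SD, n = 3 each), with a log2 change of -0.11 ± 0.16 (SE) and an edgeR adjusted p of 0.540. The 95% interval of the change, -0.44 to 0.22, corresponds to between 0.738 and 1.17 times the WT level. In every library miR-21a-5p ranked between place 22 and place 27 of the miRNA entries.

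miR-31 was the second gene of the set by abundance and the only one with both arms abundant enough to test. In somatic tissues it acts on targets of cell growth and differentiation. Its 5p arm had 394, 267 and 407 counts in KO and 366, 468 and 540 counts in WT, that is 1678, 1823 and 1670.4 CPM in KO and 2036, 2387 and 2195 CPM in WT. All 3 KO libraries lay below all 3 WT libraries, a pattern seen in 34.6% of the tested miRNAs in either direction and in 23.9% downwards. The means were 1724 ± 85.7 CPM in KO spermatids against 2206 ± 176 CPM in WT spermatids (SD, n = 3 each). The log2 change of -0.36 ± 0.17 (SE) did not pass (edgeR adjusted p = 0.0533). The call was on the other side of the threshold without WT replicate 3 (edgeR adjusted p = 0.0404) and with the replicate number as a block (edgeR adjusted p = 0.0154). It was also past the threshold with a miRNA total that leaves out the 10 highest miRNAs (edgeR adjusted p = 0.0475). miR-31-5p did not pass with DESeq2 and its own size factors (-0.24, adjusted p = 0.223) or with miRNAs alone in the edgeR fit (edgeR adjusted p = 0.0930). Nor did it pass when any other single library was left out (edgeR adjusted p 0.0656 to 0.159).

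The 3p arm of miR-31 had 105, 71 and 119 counts in KO and 79, 114 and 127 counts in WT. Its means were 473 ± 22.7 CPM in KO spermatids against 512 ± 71.1 CPM in WT spermatids (SD, n = 3 each), with a log2 change of -0.12 ± 0.21 (SE) and an edgeR adjusted p of 0.596, and the genotypes overlapped. The hairpin shows where the arms lie, in capitals with the 5p arm first and the 3p arm second:

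Mir31: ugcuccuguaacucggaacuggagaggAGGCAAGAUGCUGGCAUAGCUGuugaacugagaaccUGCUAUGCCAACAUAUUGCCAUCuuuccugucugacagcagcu

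The share of the 3p arm does not depend on how libraries are scaled. It was 21.0% (95% exact binomial interval 17.5% to 24.9%), 21.0% (16.8% to 25.7%) and 22.6% (19.1% to 26.4%) in KO libraries 1 to 3. In WT libraries 1 to 3 it was 17.8% (14.3% to 21.6%), 19.6% (16.4% to 23.0%) and 19.0% (16.1% to 22.2%). All KO libraries were above all WT libraries, while the counting intervals of single libraries overlapped. The means of 21.6% ± 0.924 in KO and 18.8% ± 0.942 in WT (SD, n = 3 each) differed by 2.76 percentage points (exact two-sided permutation p = 0.1, the smallest that 3 against 3 libraries allow). These intervals cover counting error only.

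**Figure D2:**
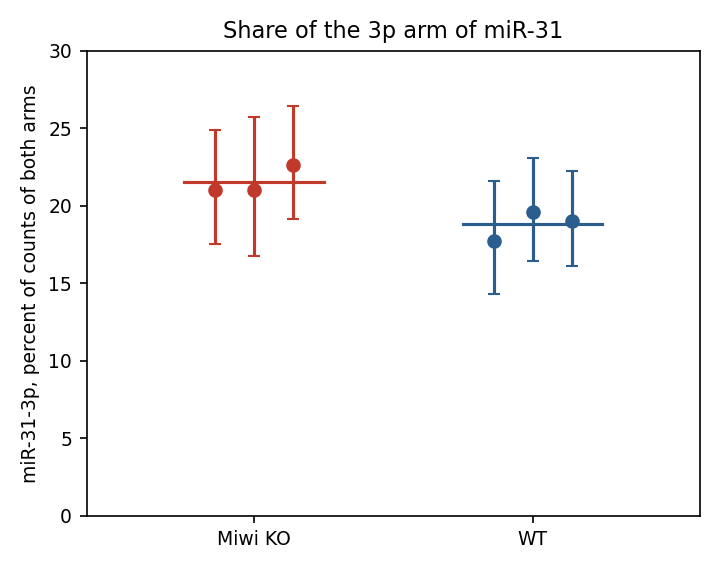
Share of miR-31-3p among the counts of both miR-31 arms, in percent, for each Miwi KO library (red) and each WT library (blue), with 95% exact binomial intervals and a line at each mean (n = 3 each). The KO libraries lie between 21.0% and 22.6% and the WT libraries between 17.8% and 19.6%.

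For the other genes 1 arm held almost all counts. The 3p arm of miR-21a had 1 of 9216 counts over all libraries, or 0.0109% (95% exact binomial interval 0.000275% to 0.0604%). Among 82 miRNA genes with entries of both arms and at least 1000 counts, only 1 had a lower minor arm share than miR-21a and 12 had a higher one than miR-31, and the median was 1.54%. The minor arms of miR-146a, miR-99b and miR-221 had 5 of 95, 3 of 190 and 1 of 79 counts. miR-222-5p had 0 of 80 counts, which allows a share of up to 3.75% with a limit of 3 counts (95% exact binomial upper bound 4.51%).

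miR-99b-5p was lower in KO by the test, the only member so called, but the call was lost in several alternatives and the direction turned with TMM factors of all entries (1.23 on the log2 scale). miR-99b shares its seed with miR-99a and miR-100, a family known to act on mTOR and Igf1r. It had 31, 10 and 27 counts in KO and 34, 26 and 59 counts in WT, that is 132.1, 68.3 and 111 CPM in KO and 189, 132.6 and 239.8 CPM in WT. The highest KO library and the lowest WT library were thus nearly level. The means were 104 ± 32.5 CPM in KO spermatids against 187 ± 53.6 CPM in WT spermatids (SD, n = 3 each), and the fitted log2 change was -0.82 ± 0.32 (SE; edgeR adjusted p = 0.0158). The 95% interval ran from -1.46 to -0.18. The call was lost without KO replicate 2 (log2 change -0.64, edgeR adjusted p = 0.0825), without WT replicate 3 (-0.57, edgeR adjusted p = 0.0971) and with DESeq2 (-0.72, adjusted p = 0.0813). It was also lost with miRNAs alone in the edgeR fit (-0.82, edgeR adjusted p = 0.0870), where 4.59% of miRNAs were called higher in KO and 8.56% lower. With 10 counts, KO library 2 had a 95% exact binomial interval of 32.7 to 126 CPM.

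Relatives and neighbours of miR-99b were read on the same scale. miR-99a-5p, with the same seed, was called lower in KO, by a fitted -0.67 ± 0.19 (log2 change and SE; edgeR adjusted p = 0.00124), at 1241 ± 214 CPM in KO spermatids against 1974 ± 409.5 CPM in WT spermatids (SD, n = 3 each). miR-100-5p had a log2 change of -0.35 ± 0.24 (SE) that did not pass (edgeR adjusted p = 0.171). The genomic neighbours did not pass either, and of these only miR-125a-5p had libraries without overlap. miR-125a-5p was at 718 ± 75.2 CPM in KO spermatids against 893 ± 118 CPM in WT spermatids (SD, n = 3 each; log2 change -0.31, edgeR adjusted p = 0.130). let-7e-5p was at 535 ± 107 CPM in KO spermatids against 494 ± 12.4 CPM in WT spermatids (SD, n = 3 each; log2 change 0.10, edgeR adjusted p = 0.648). The ratio of miR-99b-5p to let-7e-5p, which needs no scaling, was 0.237, 0.109 and 0.265 in KO libraries and 0.386, 0.274 and 0.472 in WT libraries, without overlap (exact two-sided permutation p = 0.1). Its ratio to miR-125a-5p was 0.183, 0.106 and 0.140 in KO and 0.231, 0.160 and 0.233 in WT, with overlap (exact two-sided permutation p = 0.2).

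miR-221-3p and miR-222-3p, which are cut from neighbouring hairpins and repress Kit, the receptor of differentiating spermatogonia, were scarce in both genotypes. miR-221-3p had 17, 7 and 10 counts in KO and 11, 15 and 18 counts in WT. miR-222-3p had 17, 6 and 14 counts in KO and 12, 12 and 19 counts in WT. The genotypes overlapped for each. miR-221-3p averaged 53.7 ± 16.5 CPM in KO spermatids against 70.3 ± 8.06 CPM in WT spermatids (SD, n = 3 each), a log2 change of -0.38 with a 95% interval of -1.18 to 0.42 (edgeR adjusted p = 0.370). miR-222-3p averaged 56.9 ± 15.7 CPM in KO spermatids against 68.4 ± 8.13 CPM in WT spermatids (SD, n = 3 each), a log2 change of -0.23 with a 95% interval of -1.02 to 0.56 (edgeR adjusted p = 0.580). Their ratio to each other was close to 1 in sum, with 37 counts of miR-222-3p to 34 of miR-221-3p in KO and 43 to 44 in WT. The difference in the log2 ratio was 0.13 (exact two-sided permutation p = 0.7, n = 3 each). The 95% intervals run from 0.441 to 1.34 times the WT level for miR-221-3p and from 0.492 to 1.47 times for miR-222-3p. Changes of any size within them are compatible with these counts.

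miR-146a-5p, which dampens innate immune signalling through Traf6 and Irak1, was also scarce. It had 15, 7 and 32 counts in KO and 8, 11 and 17 counts in WT. In KO library 3 it reached 131 CPM, while the other KO libraries, at 63.9 and 47.8 CPM, lay within the WT range of 44.5 to 69.1 CPM. The means were 81.0 ± 44.3 CPM in KO spermatids against 56.6 ± 12.3 CPM in WT spermatids (SD, n = 3 each), with a log2 change of 0.55 ± 0.41 (SE) and an edgeR adjusted p of 0.198. Without KO replicate 3 the log2 change was -0.01. miR-146b-5p, of the same seed, was at 215 ± 73.6 CPM in KO spermatids against 230 ± 74.4 CPM in WT spermatids (SD, n = 3 each; log2 change -0.07, edgeR adjusted p = 0.812).

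**Figure D3:**
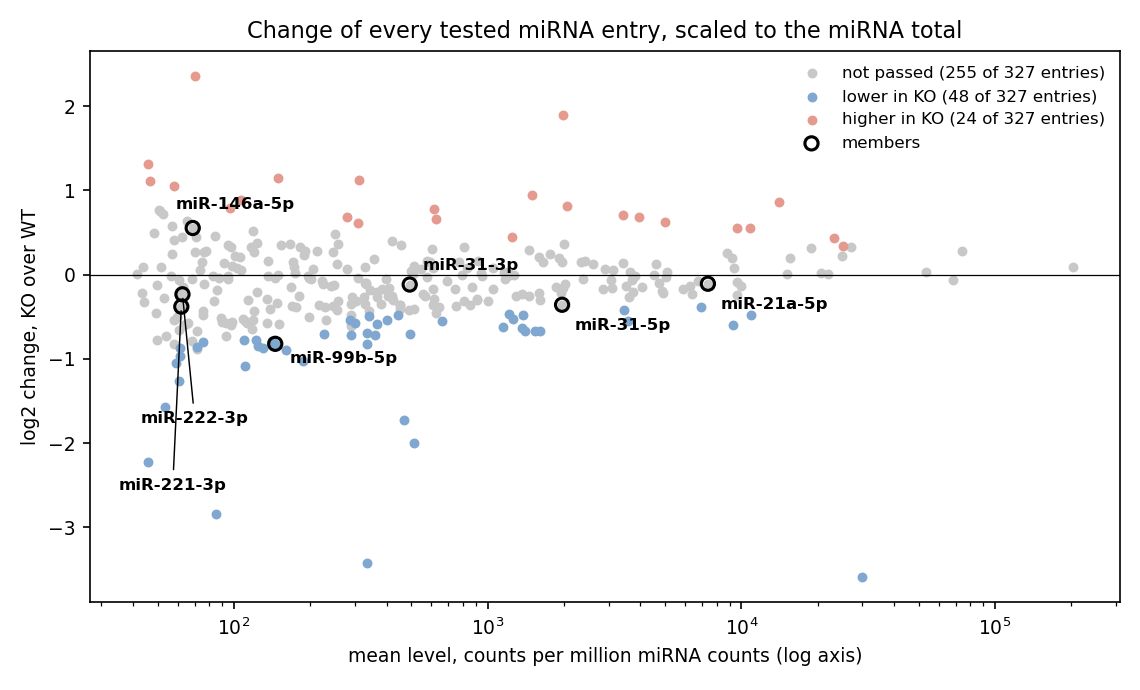
Log2 change, KO over WT, of each of the 327 tested miRNA entries against its mean level in CPM (log axis), with entries called higher in KO in red, lower in blue and not passed in grey. The circled members lie among the other miRNAs, from -0.82 for miR-99b-5p to 0.55 for miR-146a-5p.

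In order of level per nucleotide of the length annotated in the count table (for miR-222-3p 21 nt, against 23 nt in RefSeq), miR-21a-5p was followed by miR-31-5p and miR-31-3p in both genotypes, and no library of 1 of these overlapped the next. miR-99b-5p came next, at 4.71 ± 1.48 CPM per nt in KO and 8.51 ± 2.44 CPM per nt in WT (SD, n = 3 each). In KO it overlapped miR-146a-5p, the next below, and in WT it lay above miR-222-3p, miR-221-3p and miR-146a-5p without overlap. The order among miR-146a-5p, miR-222-3p and miR-221-3p was within the spread of the libraries in each genotype.

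**Figure D4:**
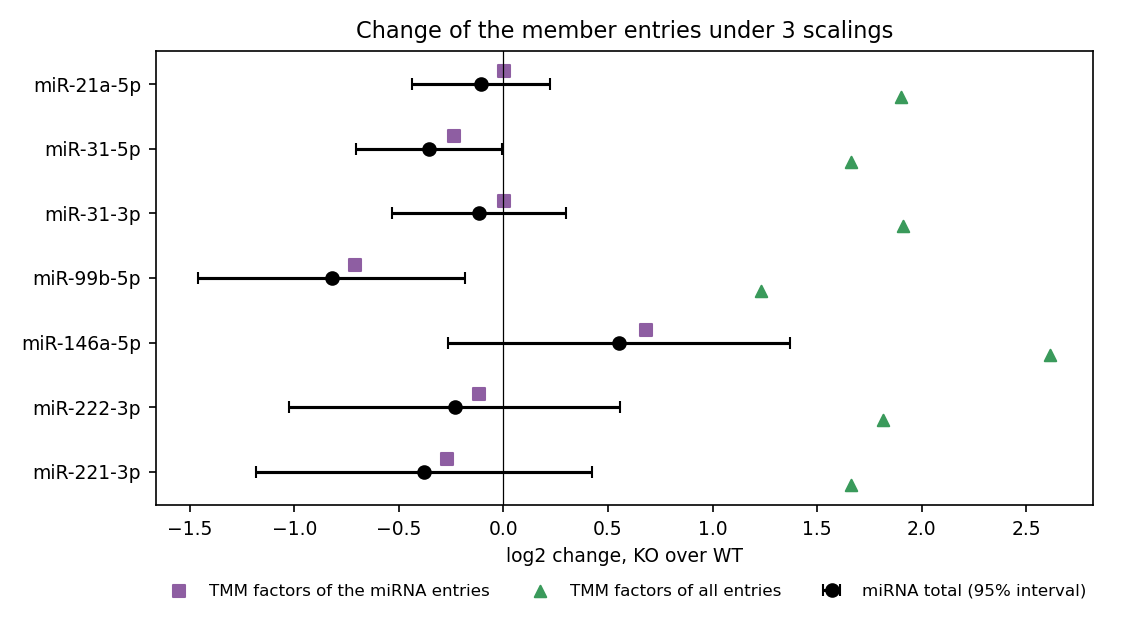
Log2 change, KO over WT, of the 7 tested member entries with libraries scaled to the miRNA total (black, with 95% interval), with TMM factors of the miRNA entries (violet squares) and with TMM factors of all entries of the small RNA table (green triangles). With TMM factors of all entries every one of the 7 is higher in KO, from 1.23 to 2.62.

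The direction of every member but miR-146a-5p depended on what the libraries were scaled to. With TMM factors (trimmed means of the ratios between libraries) of all small RNA entries, which are mostly piRNAs, all 7 members were called higher in KO, by 1.23 for miR-99b-5p to 2.62 for miR-146a-5p on the log2 scale. On that scale 319 of 327 miRNAs were called higher and the median of the 327 was 1.90, so miR-99b-5p was below that median and miR-21a-5p, at 1.90, was level with it. With TMM factors of the miRNA entries, which moved the median of the miRNAs to -0.01, miR-99b-5p changed by -0.71 and was still called lower (edgeR adjusted p = 0.0363), and the other members did not pass. A level relative to other miRNAs does not give the amount per cell, and in such bulk samples fewer cells of a type and less RNA per cell cannot be told apart.

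Lists of miRNAs known from germ cell stages and other testis cells were read on the scale of the miRNA total. On that scale 7.34% of all tested miRNAs were called higher in KO and 14.7% lower. With TMM factors of all entries every tested entry of these lists but miR-451a was called higher in KO, so entries called lower on the miRNA scale turned in direction and those called higher did not. The first list holds other miRNAs known from spermatogonia. Of 19 such entries, among them miR-20a-5p, miR-10b-5p and miR-24-3p, 16 were tested, 2 of which, the arms of miR-202, are also in the Sertoli and Leydig list, and 0 were called in either direction with edgeR, with 0 at an unadjusted p under 0.05 and 0 with DESeq2. Their median log2 change was -0.07. miR-29b-3p, the most abundant, was at 15144 ± 1014 CPM in KO spermatids against 15006 ± 659 CPM in WT spermatids (SD, n = 3 each; edgeR adjusted p = 0.937). miR-20a-5p, of the miR-17-92 cluster of proliferating cells, was at 9779 ± 1434 CPM in KO spermatids against 8539 ± 1438 CPM in WT spermatids (SD, n = 3 each; edgeR adjusted p = 0.275). Summed, the list lay at 35013 to 37867 CPM in KO and 33602 to 36732 CPM in WT.

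Of the 13 meiotic and postmeiotic germ cell miRNAs, 12 were tested, of which 5 were called higher in KO, 1 lower and 6 did not pass. Among all tested miRNAs 7.34% were called higher and 14.7% lower. The median log2 change of the list was 0.30. Those called higher were miR-184-3p, miR-449a-3p, miR-34c-3p, miR-34b-3p and miR-449a-5p, and miR-449b was called lower. With miRNAs alone in the fit 3 were called higher, while 7 were with DESeq2, with TMM factors of the miRNA entries or with the replicate block. Without KO replicate 3 or without WT replicate 2 the number called lower was 2. miR-184-3p changed most, to 3117 ± 316 CPM in KO against 835 ± 97.1 CPM in WT (SD, n = 3 each; log2 change 1.90, edgeR adjusted p = 1.24e-12). miR-34b-5p, the most abundant miRNA, was at 209594 ± 19123 CPM in KO spermatids against 196035 ± 6885 CPM in WT spermatids (SD, n = 3 each; log2 change 0.10, edgeR adjusted p = 0.554). Against the summed list, miR-21a-5p stood at 2.39, 1.76 and 1.76 counts per 100 in KO and at 2.67, 2.35 and 2.24 in WT, with overlap. The list is a sum of 13 entries led by miR-34b-5p, so its excess over 1 miRNA in every library is no measure of cell stage.

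Markers of somatic testis and blood cells were present beside the members. The endothelial miR-126a-3p, at 6575 ± 395 CPM in KO spermatids against 6908 ± 284 CPM in WT spermatids (SD, n = 3 each; edgeR adjusted p = 0.679), stood close in level to miR-21a-5p, and neither of the 2 endothelial entries passed. The 8 peritubular and mesenchymal markers, all detected, summed to 19845 to 25129.8 CPM in KO and 26726 to 37211 CPM in WT, without overlap. Of the 8, 6 were called lower in KO, against 14.7% of all tested miRNAs. The number called lower was 5 with miRNAs alone in the fit and 4 with DESeq2. Among the 6 were miR-143-3p (log2 change -0.60, edgeR adjusted p = 0.000794) and miR-145a-5p (-0.47, edgeR adjusted p = 0.0183), both of smooth muscle, and miR-199a-5p (-1.02, edgeR adjusted p = 0.00166). For miR-145a-5p the genotypes overlapped, with KO library 3 (12029 CPM) above WT libraries 1 and 2 (11510 and 9626 CPM). The median log2 change of the 8 was -0.63, and miR-99a-5p, the relative of miR-99b-5p, is 1 of the 6. miR-99b-5p was called lower in KO together with this list, and the part of such cells in its value was not tested.

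The leukocyte list (6 tested, 1 called higher, 1 lower) summed to 2820 to 3323 CPM in KO and 2982 to 3525 CPM in WT. miR-155-5p, known from activated lymphocytes, was called higher in KO (log2 change 1.31, edgeR adjusted p = 0.00717) on 40 counts in KO and 16 in WT, a call lost without WT replicate 3 and with miRNAs alone in the fit, and miR-342-3p was called lower (-0.62, edgeR adjusted p = 0.00227). The Sertoli and Leydig list (5 tested) had 1 entry, miR-140-3p, called lower (-0.48, edgeR adjusted p = 0.0120), a call lost with DESeq2 and with TMM factors of the miRNA entries, and the list summed to 3349 to 3761 CPM in KO and 4137 to 4569 CPM in WT. The erythroid miR-451a, the only tested entry of its list, was called lower (-1.26, edgeR adjusted p = 0.00498) on 22 counts in KO and 53 in WT. The list, most of it miR-451a itself, summed to 38.3 to 54.6 CPM in KO and 89.0 to 128 CPM in WT.

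**Figure D5:**
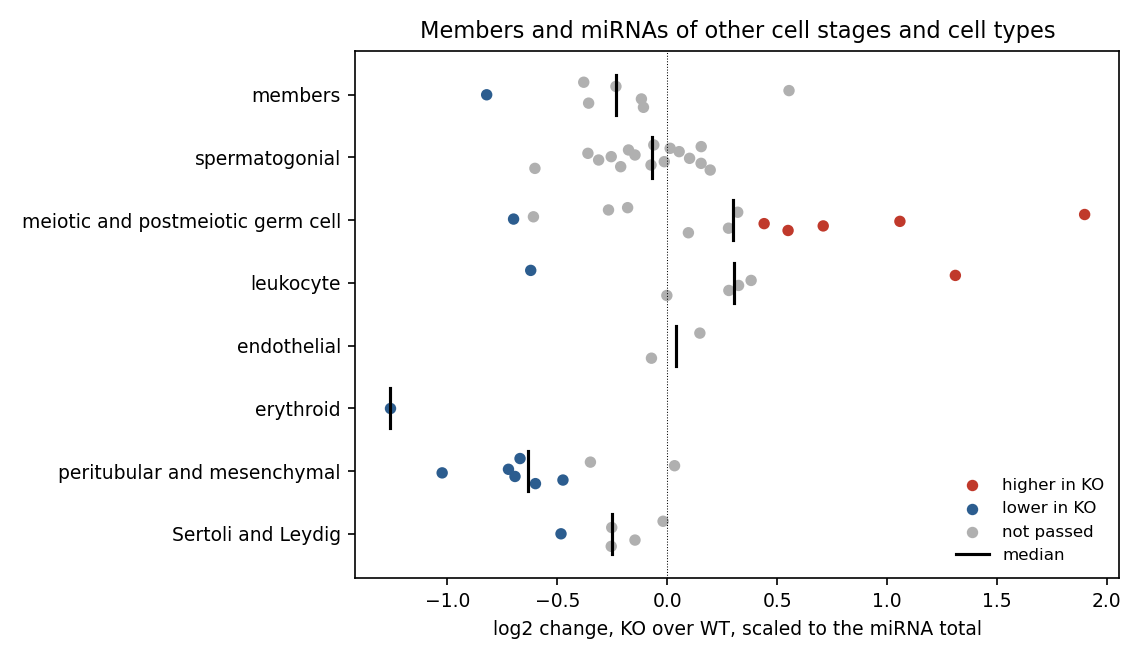
Log2 change, KO over WT, scaled to the miRNA total, of the 7 tested members and of the tested miRNAs of 7 lists of cell stages and cell types, with entries called higher in KO in red, lower in blue, not passed in grey and the median of each as a line. The 16 spermatogonial entries centre on -0.07 with none called, and 6 of the 8 peritubular and mesenchymal entries are called lower. Of all tested miRNAs 14.7% are called lower and 7.34% higher. With TMM factors of all entries the entries called lower here turn in direction, and every tested list entry but miR-451a is called higher.

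Across the 6 libraries the miRNA most like miR-21a-5p was miR-16-5p, with a root mean square difference of 0.06 in log2 level after each was centred on its own mean, against a median of 0.26 over 249 candidates. For miR-31-5p it was miR-148a-3p (0.09, median 0.27), for miR-31-3p miR-365-3p (0.07, median 0.25) and for miR-99b-5p miR-423-5p (0.12, median 0.57). miR-423-5p was itself called lower in KO (log2 change -0.72, edgeR adjusted p = 0.0109). It was matched over the same KO and WT libraries, so this call is not independent of that of miR-99b-5p. For miR-221-3p the most alike was miR-743a-5p (0.11, median 0.35 over 250 candidates), for miR-222-3p miR-204-5p (0.12, median 0.34) and for miR-146a-5p miR-3472 (0.34, median 0.60). These scarce members had 6 to 32 counts per library, so counting noise weighs on their matches. The second closest were miR-883a-3p, miR-880-3p, miR-463-5p, miR-1195, miR-25-3p, miR-425-5p and miR-130b-5p in the same order of members.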

How the data were processed

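Small RNA libraries (Ion Total RNA-Seq Kit v2, per the labels) of 3 KO and 3 WT round spermatid samples were used. The deposited table holds raw read counts per annotated small RNA, made by the authors with featureCounts v1.5.0-p2, per the file headers; the submitters' processing notes also name cutadapt, DESeq2 and the build mm9. The aligner and the handling of multi-mapped reads: not given in the sources used here. Sequences and positions are from RefSeq and gene models for GRCm38, used for names and not joined to mm9 coordinates. The piRNA table was not used.

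Counts were fitted with edgeR 4.0.16 (quasi-likelihood, R 4.3.3), with each library's miRNA total as its size and no TMM factor. Default filtering (minimum count 10, minimum total 15) left 26032 entries, over which p-values were Benjamini-Hochberg adjusted. Exact permutation and binomial intervals used scipy 1.17.1. The fit was tested on simulated data. Alternatives were other scalings, filters, DESeq2 1.42.0, miRNAs alone, a replicate block and each library left out. DESeq2 used its own size factors, estimated from the tested miRNA entries, in place of the miRNA total. Leaving out both number 3 libraries was added after seeing the data.

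Members, lists and tests were chosen with earlier results of these data known. Named are all members, chosen relatives and cluster neighbours, for each list examples from its 4 most abundant entries and its most changed, and the 2 most alike miRNAs (candidates with a mean share of at least 0.01%, log2 with a pseudocount of 0.5). Other list entries called were named after their values were seen. Replicates of a genotype differed beyond sampling noise (chi-square per degree of freedom over miRNAs 4.44 to 12.8), so none was counted as a duplicate.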

Additional observations from a re-analysis of the deposited data

How the results depend on the processing

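Scaling decided the direction. With TMM factors over all entries the log2 changes were 2.62 for miR-146a-5p, 1.90 for miR-21a-5p, 1.66 for miR-221-3p, 1.82 for miR-222-3p, 1.91 for miR-31-3p, 1.66 for miR-31-5p and 1.23 for miR-99b-5p. With the total of all entries they were 2.33, 1.63, 1.38, 1.53, 1.64, 1.40 and 0.95 in the same order. Either way 7 members were called higher in KO and 0 lower, and 47 list members higher and 0 lower. TMM over all entries called 319 miRNAs higher and 2 lower, and 8659 entries higher and 10617 lower. The total of all entries called 314 miRNAs higher and 3 lower, and 7430 entries higher and 12134 lower. As a share of all counts the members' sum had a log2 ratio of 1.58. Median log2 changes of all entries were -2.31 with the miRNA total and -0.27 with TMM over all entries.

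miR-31-5p passed without the 10 highest miRNAs (-0.36), with the filter of 30 counts (-0.36), with the replicate block (-0.35) and without both number 3 libraries (-0.34). It did not pass with TMM over miRNAs (-0.24), with DESeq2 (-0.24) or with miRNAs alone (-0.36). miR-99b-5p did not pass with DESeq2 (-0.72), with miRNAs alone (-0.82) or without both number 3 libraries (-0.60). Members called lower were 2 without the 10 highest miRNAs, 2 with the replicate block, and 0 with DESeq2 and with miRNAs alone. All miRNAs called lower were 30 with TMM over miRNAs, 21 with DESeq2 and 28 with miRNAs alone, which called 15 higher and 3 list members higher. The filter of 30 counts called 950 entries higher and 13513 lower. The causes were not tested.

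Leaving out 1 library at a time gave log2 changes of -0.41 to -0.30 for miR-31-5p, -1.02 to -0.57 for miR-99b-5p and -0.01 to 0.77 for miR-146a-5p, and 0 to 1 members called lower. Whether the replicate numbers pair the libraries is not settled. Same-number correlations of deviations were low over all entries, at 0.02, 0.07 and 0.11, although each library correlated best with its own number there. Over the miRNAs they were -0.14, 0.23 and 0.12 for numbers 1 to 3. Depth limits miR-221-3p, miR-222-3p and miR-146a-5p most, with 6 to 32 counts per library; a count of 3 is 20.5 CPM in KO library 2.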
